A study of Mus musculus with 12 samples.

Results

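The genes described here are 59 protein-coding genes whose symbols place them in the cell cycle and mitotic gene families. These are the A, B, D and E type cyclins, the CDKs, the Cdkn genes (mostly CDK inhibitors), the numbered CDC genes apart from Cdc42 and its relatives, the centromere proteins, the kinesins, the MCM helicase, the BUB, Aurora and Polo kinases, the E2F factors, topoisomerase II and Ki-67. They were taken by symbol alone from the 9338 genes, 6886 of them protein-coding, in the 4 tables of differential expression that were deposited. Each table held only genes with an unadjusted p under 0.05 in the authors' own comparison of a pair of groups. All 59 genes had therefore passed that test at least once, and members of the same families outside the tables were not analysed here. Of the 59, 37 were in 1 table, 19 in 2 and 3 in 3. The symbol rule also took in genes with no established part in cell division, among them Cdk5r1, which encodes p35, the activator of the neuronal kinase CDK5, and the cargo-carrying kinesins Kif1a, Kif5a and Kif17.

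RNA was sequenced from CD31+ cells of the lungs of 12 male mice, 3 in each of 4 groups with 1 library for each mouse. All mice were C57Bl/6J, homozygous for a floxed TET2 allele (TET2fl/fl), treated when 6 to 8 weeks old with 40 mg/kg tamoxifen on 3 days, and 30 weeks old when the cells were taken. TET2 KO mice also carried Cdh5-CreERT2, a tamoxifen-activated Cre driven by the endothelial VE-cadherin promoter, and WT mice did not. The chow groups ate a diet with 13% of its energy from fat throughout, while the HFD groups ate a diet with 60% from fat for 20 weeks, which gave the groups called WT chow, TET2 KO chow, WT HFD and TET2 KO HFD. The cells were enriched on beads coated with an antibody to CD31, which some blood cells also carry, so they were not pure endothelial cells. Libraries held 36.7 to 56.8 M reads on genes. Tet2 itself was in the table for HFD against chow in WT but in neither table that compares the genotypes, so the knockout was not checked from its level here.

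A cell enters division when D-type cyclins with CDK4 or CDK6, and then E-type cyclins with CDK2, phosphorylate the retinoblastoma protein and release E2F factors. E2F factors switch on the genes of DNA replication, such as those of the MCM helicase that CDC45 activates, and a later wave of genes, which includes the B-type cyclins, centromere proteins and mitotic kinesins, carries the cell through mitosis. The INK4 inhibitors (Cdkn2a to Cdkn2d) act on CDK4 and CDK6, p27 (Cdkn1b) acts chiefly on CDK2 complexes, and most endothelial cells of the adult lung are at rest.

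The annotation that the tables' identifiers match, GENCODE M21 on GRCm38, has 162 protein-coding genes under the symbol rule, and 59 of them (36.4%) were in at least 1 table, against 31.3% of all protein-coding genes. Listing was most frequent for HFD against chow in WT, with 45 of the 162 (27.8%, against 24.98% of all protein-coding genes). TET2 KO against WT on HFD had 26 (16.05%, against 13.6%), HFD against chow in TET2 KO had 7 (4.32%, against 5.63%), and TET2 KO against WT on chow had 6 (3.70%, against 4.13%). Each share was thus near that of all protein-coding genes. By role, 8 of 10 genes with Cdkn symbols (the CDK inhibitors Cdkn1b and Cdkn2a to Cdkn2d, and Cdkn3, Cdkn2aip and Cdkn2aipnl, which have other roles), 8 of 10 CDC25, CDC14 and APC/C genes and 6 of 10 cyclins were in a table, but 1 of 8 E2F factors and 2 of 12 mitotic kinases and spindle checkpoint genes. Of a panel of 45 genes of proliferation and its control, which includes CDK inhibitors and the E2F factors, 17 were in a table. Ki-67 (Mki67), Ccnb2, Ccne1, Ccne2, E2f1 and Mcm7 were among them, and Top2a, Ccna2, Ccnb1, Cdk1, Bub1, Aurka, Aurkb, Plk1, Cenpe, Cenpf and Mcm2 to Mcm6 were not.

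**Figure D1:**
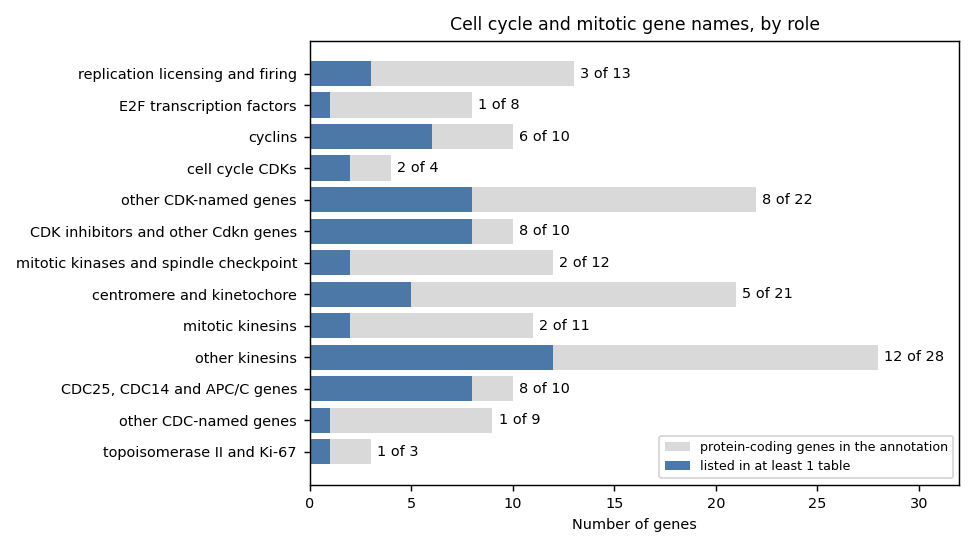
Number of protein-coding genes under the symbol rule in each role: grey bars are all such genes in the annotation and blue bars those listed in at least 1 of the 4 tables. The largest role is that of kinesins without a main part in mitosis, with 12 of 28 listed, while 3 of 13 genes of replication licensing and firing were listed.

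Promoters of division genes often carry short motifs that bind E2F or DREAM complexes, so the 250 bases before each member's RefSeq start were searched on both strands. RefSeq promoters on GRCm38.p6 were given for 49 of the 59 members, some with more than 1 start, and for 29 of the 49 a window holds part of an exon annotated in GENCODE, whose starts can differ. The letters searched were TTTCCCGC, TTTGGCGC, TTTCGCGC and TTTGCCGC for E2F, TTTGAA and TTCGAA for the cell cycle genes homology region (CHR), and CCAAT for NF-Y. An E2F word was in 7 member promoters (14.29%) against 2.72% of 17492 protein-coding promoters, a CHR word in 15 (30.61%, against 18.44%), and CCAAT in 25 (51.02%, against 39.48%). Among the 16 members with a promoter that fell on HFD in WT, 4 held an E2F word (25%) and 7 a CHR word (43.75%). Among the 16 that rose, 0 held an E2F word and 3 a CHR word (18.75%). Fell and rose here mean an unadjusted p under 0.05. The members were taken by cell cycle symbols, and the shares among genes of these families outside the 59 were not counted. These values therefore do not set the listed members apart from their families. The shares among all genes that fell or rose were not counted either. Whether the contrast between the members that fell and rose is particular to them was thus not tested. Ccnd1, Ccnd2, Ccne2 and Cdk5r1 were among the members without a promoter. A matching word is a description of the sequence and not evidence of binding. Of the 9 members that fell on HFD in WT and held a CHR or E2F word, 3 have windows free of annotated exons, and these promoters are shown 5′ to 3′ with the matching words in capitals (TTTGAA or its complement TTCAAA for CHR, TTTGGCGC for E2F, CCAAT or its complement ATTGG for NF-Y). That of Ccnb2, which encodes the mitotic cyclin B2, is at chr9:70421555-70421804 on the minus strand and holds CCAAT at 3 places. That of Cdc25a, a phosphatase that activates CDK2, is at chr9:109875329-109875578 and that of Cdkn3, a phosphatase that acts on CDKs in dividing cells, is at chr14:46760291-46760540, both on the plus strand.
Ccnb2: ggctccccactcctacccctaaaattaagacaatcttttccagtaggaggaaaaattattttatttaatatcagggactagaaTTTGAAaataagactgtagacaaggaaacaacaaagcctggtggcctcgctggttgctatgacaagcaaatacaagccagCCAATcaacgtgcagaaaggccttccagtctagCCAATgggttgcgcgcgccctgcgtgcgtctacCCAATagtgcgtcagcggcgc
Cdc25a: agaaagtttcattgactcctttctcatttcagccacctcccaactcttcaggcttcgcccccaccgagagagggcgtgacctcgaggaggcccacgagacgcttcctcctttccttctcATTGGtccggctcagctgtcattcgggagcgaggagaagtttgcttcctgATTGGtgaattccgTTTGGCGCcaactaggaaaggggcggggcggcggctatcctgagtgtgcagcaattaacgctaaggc
Cdkn3: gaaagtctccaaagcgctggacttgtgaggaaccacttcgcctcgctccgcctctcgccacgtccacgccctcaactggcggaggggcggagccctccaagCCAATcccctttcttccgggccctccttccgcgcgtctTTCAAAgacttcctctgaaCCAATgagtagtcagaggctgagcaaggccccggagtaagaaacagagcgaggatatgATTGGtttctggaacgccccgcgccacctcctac

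Each comparison was tested with edgeR's quasi-likelihood test on the counts of all listed genes. A gene is said below to have risen or fallen where its unadjusted p was under 0.05, the threshold at which the deposited tables stop, and the p-values printed were adjusted by the Benjamini-Hochberg method over the full number of genes in the authors' own adjustment. Levels are in FPKM, fragments counted per unit of gene length and of sequencing depth, given for replicates 1, 2 and 3 in turn, and fold changes are log2 values ± SE. Because listing required a p under 0.05 in a related test, the number of members that passed is read only against the share of all listed genes that passed. Listing rested on the authors' DESeq2 test, so how many members passed in the DESeq2 runs below was largely fixed by it. Shares of all listed genes that passed were not counted for DESeq2 or with 1 library left out.

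At an unadjusted p under 0.05, WT cells on HFD had lower levels of Ccnd2, the E-type cyclins, E2f1, Cdc45, Mcm7, Cdk2 and Ccnb2. They had higher levels of Ccnd1, Ccnd3, Cdk4 and the inhibitors Cdkn1b, Cdkn2b, Cdkn2c and Cdkn2d. Of the genes just named, only Ccnd2 passed at an adjusted p under 0.05 by edgeR. By DESeq2 all but E2f1, Ccnb2, Cdkn2c and Cdkn2d did. Of the 45 members listed, 41 passed the test, 19 higher and 22 lower. That was 91.1% of them, against 91.6 percent of the 7330 listed genes (42.4 percent higher and 49.2 percent lower) and 27.6 percent of the 23768 genes the authors adjusted. For 39 of the 45 there was no overlap between the groups' libraries, against 86.5 percent of the listed genes, and 7 passed with a log2 change over 1, against 45.1 percent. At an adjusted p under 0.05, 5 members passed (Cdk5r1, Kif26a, Ccnd2, Kif17 and Cdc14a), and 18.6 percent of the listed genes did. The median size of the log2 change was 0.58 over the members and 0.95 over the listed genes. DESeq2 on the same counts, the test behind the listing, gave 42 members, 29 of them at an adjusted p under 0.05. This adds no separate support. Without WT chow replicate 2 the count of 41 became 24, and without WT HFD replicate 1 or WT HFD replicate 2 it became 27, while 22 members passed whichever library was left out. How many of all listed genes would do so was not counted, so these counts do not set the members apart.

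The E-type cyclins, which activate CDK2 at the start of S phase, fell the most among the cyclins. Ccne1 was 3.46, 3.68 and 2.49 FPKM in WT chow and 1.65, 1.67 and 1.95 FPKM in WT HFD, with no overlap (log2 fold change -0.86 ± 0.20, adjusted p = 0.0536). Ccne2 was 2.23, 1.95 and 2.41 FPKM in WT chow and 1.04, 1.05 and 1.57 FPKM in WT HFD, also without overlap (-0.84 ± 0.22, adjusted p = 0.0650). Their partner Cdk2 went from 14.5, 12.8 and 11.4 to 9.31, 10.05 and 8.85 FPKM (-0.45 ± 0.12). These 3 genes passed whichever of the 6 libraries was left out.

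Among the E2F and replication genes, Cdc45, which loads onto MCM to start the helicase, went from 2.35, 2.62 and 2.43 FPKM in WT chow to 1.37, 1.10 and 1.72 FPKM in WT HFD (-0.81 ± 0.20, adjusted p = 0.0593) and passed without any one library. E2f1, the activating E2F factor of the G1 to S transition, went from 6.61, 8.76 and 6.56 to 4.43, 3.999 and 6.02 FPKM (-0.59 ± 0.20). Mcm7 went from 15.1, 14.6 and 13.4 to 11.8, 11.3 and 11.9 FPKM (-0.29 ± 0.10), the smallest of the 3 changes and without overlap. The call for E2f1 was lost without WT HFD replicate 1, WT HFD replicate 2 or WT chow replicate 2, and that for Mcm7 without WT HFD replicate 2, WT chow replicate 1 or WT chow replicate 2. Cdc6, which helps to load MCM onto origins, was 0.868, 1.47 and 1.30 FPKM in WT chow and 0.542, 0.633 and 1.06 FPKM in WT HFD and did not pass (-0.70 ± 0.32, adjusted p = 0.225). Replicate 3 of WT HFD was the highest of its group for E2f1, Cdc45 and Cdc6.

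Ccnb2, Mki67 and Kif23 lay below every WT chow library in 2 of the 3 WT HFD libraries and not in the third. Ccnb2 was 6.72, 11.05 and 8.19 FPKM in WT chow and 4.31, 4.28 and 6.73 FPKM in WT HFD, so that the third WT HFD library lay just above the lowest WT chow library (-0.75 ± 0.26, adjusted p = 0.115). Mki67, the proliferation antigen that coats mitotic chromosomes, was 6.67, 11.02 and 8.72 FPKM in WT chow and 4.37, 3.95 and 8.43 FPKM in WT HFD and did not pass (-0.65 ± 0.32, adjusted p = 0.276). Kif23, a kinesin of the midbody, was 4.66, 5.41 and 4.84 and 2.75, 2.80 and 4.84 FPKM and did not pass either (-0.51 ± 0.23, adjusted p = 0.216). In both, replicate 3 of WT HFD lay within the range of the WT chow libraries. Cdc20, the activator of the anaphase-promoting complex (APC/C), was 4.55, 4.69 and 4.35 FPKM in WT chow and 3.78, 3.33 and 3.66 FPKM in WT HFD, with no overlap but without passing (-0.33 ± 0.14, adjusted p = 0.190). Cdkn3 fell by 0.85 on the log2 scale and Kif24 fell by 0.86, both at levels of 1.06 FPKM or less in every library. Cenpl, of the inner kinetochore, fell by 0.41 and Cdc25a fell by 0.29. The calls for Ccnb2, Cdkn3, Kif24, Cenpl and Cdc25a were each lost without at least 3 of the 6 libraries taken in turn, WT HFD replicates 1 and 2 and WT chow replicate 2 among them.

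The D-type cyclins, which respond to growth signals, split. Ccnd1 was 2.95, 3.17 and 7.04 FPKM in WT chow and 10.6, 7.41 and 8.98 FPKM in WT HFD (1.04 ± 0.35, adjusted p = 0.109), and the third WT chow library stood well above the other two. Its call was lost without WT HFD replicate 1, WT chow replicate 1 or WT chow replicate 2, and its log2 change ran from 0.82 to 1.57 over the fits that left out 1 library. Ccnd3 was 12.3, 11.3 and 14.2 FPKM in WT chow and 19.1, 17.2 and 19.2 FPKM in WT HFD (0.56 ± 0.13, adjusted p = 0.0508). Ccnd2, by contrast, went from 20.96, 25.3 and 21.7 FPKM in WT chow to 14.2, 12.4 and 15.7 FPKM in WT HFD (-0.68 ± 0.14, adjusted p = 0.0418). Cdk4, the kinase these cyclins bind, was 13.4, 12.9 and 14.2 and 17.3, 16.7 and 17.3 FPKM (0.35 ± 0.10). Ccnd2, Ccnd3 and Cdk4 passed without any one library.

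Of the 6 listed genes with Cdkn symbols, the 4 CDK inhibitors and Cdkn2aipnl rose and Cdkn3 fell. Cdkn2b, which encodes the CDK4 and CDK6 inhibitor p15, was 2.31, 1.94 and 3.75 FPKM in WT chow and 5.52, 4.53 and 5.28 FPKM in WT HFD (0.94 ± 0.27, adjusted p = 0.0786) and passed without any one library. Cdkn2c, which encodes p18, was 2.40, 2.55 and 2.06 and 3.02, 2.96 and 3.86 FPKM (0.49 ± 0.18). Cdkn2d, which encodes p19, was 21.2, 17.04 and 18.02 and 21.4, 26.4 and 25.7 FPKM, with the highest WT chow library just below the lowest WT HFD library (0.39 ± 0.14). Cdkn1b, the most abundant of them in FPKM, was 51.4, 41.4 and 45.7 FPKM in WT chow and 56.5, 60.2 and 57.8 FPKM in WT HFD (0.34 ± 0.12). The calls for Cdkn2c, Cdkn2d and Cdkn1b were each lost without 3 or more of the 6 libraries, WT chow replicate 3 for all of these genes. Cdkn2aipnl, a gene named for its likeness to a binding partner of the Cdkn2a product, rose by 0.37.

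The members with other roles moved both ways. The APC/C subunits Cdc16, Cdc23 and Cdc26, parts of the ubiquitin ligase that ends mitosis and holds G1, rose by 0.40, 0.48 and 0.35 on the log2 scale. Cdc14a, a phosphatase, went from 1.84, 1.90 and 2.11 to 2.68, 2.77 and 3.21 FPKM (0.57 ± 0.13, adjusted p = 0.0476). Plk2, a Polo-like kinase induced early after stimuli, went from 30.8, 26.1 and 50.02 FPKM to 60.9, 72.4 and 56.01 FPKM (0.83 ± 0.25), again with the third WT chow library above the others. Among the kinases outside the core cycle, Cdk14 rose by 0.82 and Cdk19, a kinase of the Mediator complex, by 0.58, while Cdk11b and Cdk12, kinases of transcription and splicing, fell by 0.42 and 0.30. Cdk2ap1, whose product binds CDK2, rose by 0.41, and Cdc34, a ubiquitin-conjugating enzyme, fell by 0.26. Cdk5r1 had the smallest p of the 45 members and went from 6.25, 5.92 and 4.12 FPKM in WT chow to 2.10, 2.15 and 2.30 FPKM in WT HFD (-1.31 ± 0.18, adjusted p = 0.0357). The calls for Cdc26, Cdc34, Cdk12 and Cdk19 were lost without WT chow replicate 2 and at least 1 other library.

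Kinesins, the motors that walk along microtubules, held the largest changes in both directions. Kif26a, a kinesin-like protein that signals without motor activity, went from 0.960, 0.901 and 1.54 FPKM in WT chow to 6.61, 4.02 and 2.97 FPKM in WT HFD (2.01 ± 0.35, adjusted p = 0.0368). Kif7, a regulator of Hedgehog signalling in cilia, rose by 0.88 and Kif26b by 0.77. Kif17 went from 0.134, 0.392 and 0.353 FPKM to 0.0730, 0.0497 and 0.0445 FPKM (-2.35 ± 0.49, adjusted p = 0.0444). Kif1a fell by 1.13, Kif5a by 1.17, Kif1b by 0.39 and Kif13b by 0.25. Kif17, Kif1a and Kif5a are motors known from neurons, and their levels here were 1.10 FPKM or less in every library. Kif28 had 1, 11 and 6 reads in the WT chow libraries and 0, 0 and 2 in WT HFD, too few for a fold change. It is still included in the counts above of members that passed, that fell and that passed with a log2 change over 1. Without 1 library at a time, the calls for Kif13b were lost in all 6 fits and those for Kif5a in 5, and that for Kif26b without WT HFD replicate 1 or WT chow replicate 1.

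**Figure D2:**
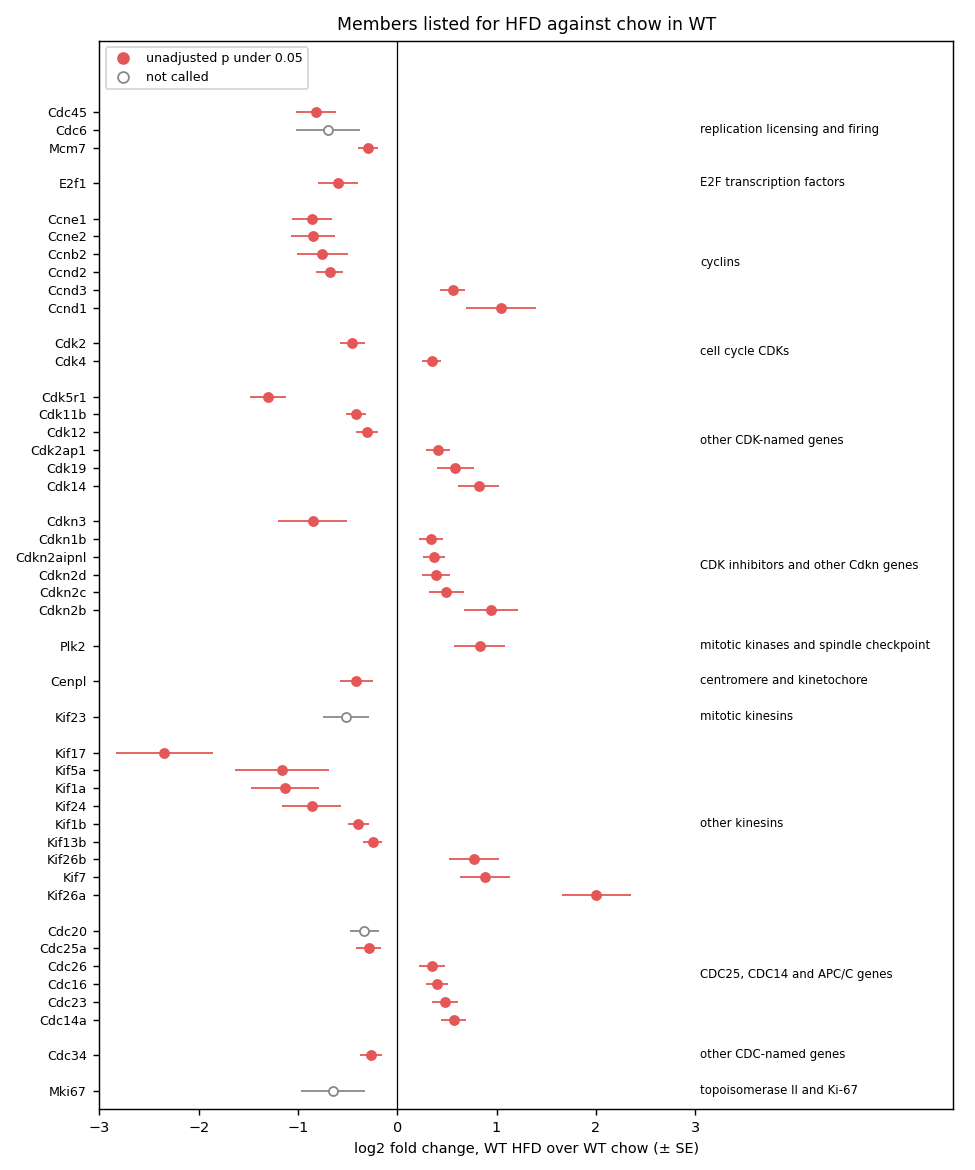
Log2 fold change of each listed member for WT HFD over WT chow (x axis; points are edgeR estimates and bars the SE), grouped by role, with filled points where the unadjusted p was under 0.05; Kif28 is left out for its low counts. Replication genes, E2f1 and E-type cyclins lie left of 0, and the CDK inhibitors Cdkn1b, Cdkn2b, Cdkn2c and Cdkn2d, the APC/C subunits and Kif26a lie right of it.

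**Figure D3:**
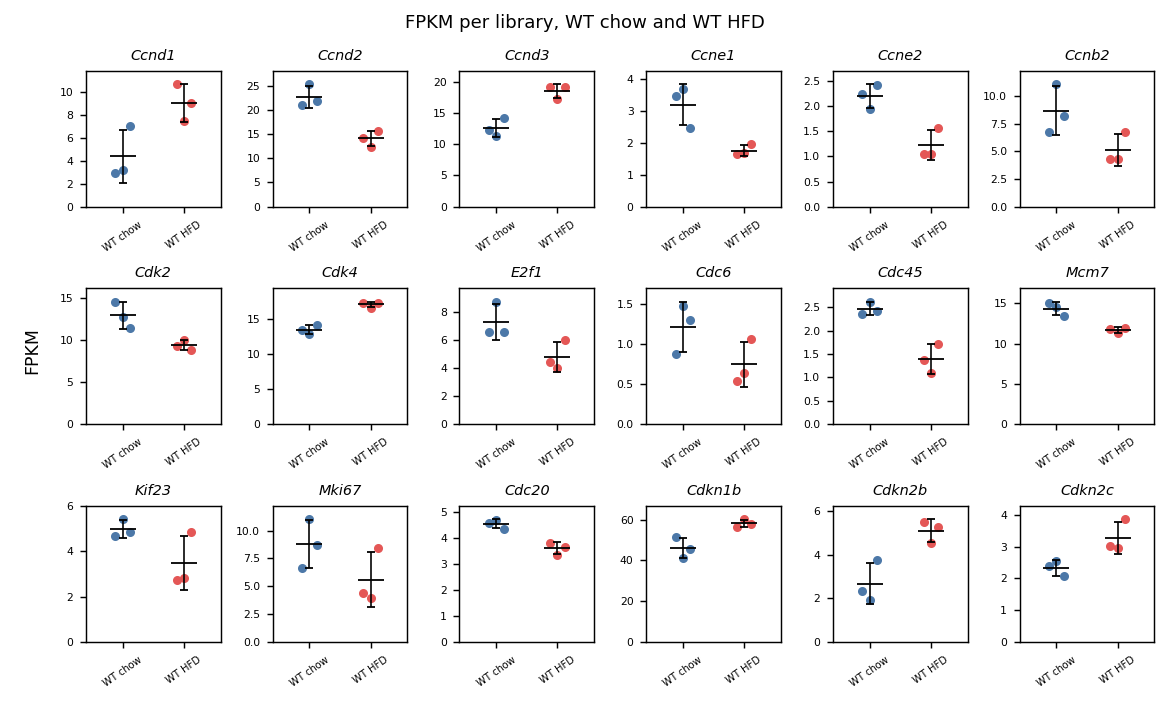
FPKM of 18 members in the 3 WT chow (blue) and 3 WT HFD (red) libraries, each point a library, with the mean and SD in black. For Ccnb2, Cdc6, Kif23 and Mki67 the third WT HFD library sits within or beside the WT chow range.

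Endothelial markers moved with the same diet contrast. All 10 markers of endothelial cells (Pecam1, which encodes CD31, Cdh5, Kdr, Tek, Tie1, Cldn5, Emcn, Vwf, Egfl7 and Esam) were listed and rose, by a median of 1.41 on the log2 scale, and their summed level was 299, 259 and 698 FPKM in WT chow and 1346, 1093 and 778 FPKM in WT HFD. All 7 NK cell markers also rose, with sums of 21.8 to 41.0 FPKM in WT chow and 68.2 to 126 FPKM in WT HFD. Of 9 lung epithelial markers 6 were listed, and the alveolar type I genes Ager and Hopx rose, by 1.34 and 1.18, while Epcam fell by 0.70 and the club cell gene Scgb3a2 by 0.64. Sftpb (0.90) and Scgb1a1 (-0.58) did not pass, and Scgb1a1 was at 1991 to 5481 FPKM, above the summed endothelial markers in every library. No B cell marker was listed, and 3 of 9 T cell markers rose. Of 8 monocyte and macrophage markers 3 rose and 2 fell, of 5 neutrophil markers 1, Retnlg, fell by 1.47, and of 8 fibroblast and smooth muscle markers 1 rose and 1 fell. Fewer cells of a type and less RNA per cell cannot be told apart in such bulk RNA, and the part of cell makeup in the changes of the cell cycle genes was not tested. The third WT chow library had the highest endothelial sum of its group and the highest Ccnd1, Cdkn2b, Cdk14 and Plk2. The third WT HFD library had the lowest endothelial sum of its group and the highest Ccnb2, E2f1, Cdc6, Kif23 and Mki67. Not all of these genes kept such an order in the other group. The third WT HFD library was between the others for Ccnd1 and Cdkn2b and lowest for Cdk14 and Plk2. The third WT chow library was between the others for Ccnb2, Cdc6, Kif23 and Mki67 and lowest for E2f1. Cdkn2c and Cdc14a, which rose on HFD, were also highest in the third WT HFD library. The genes in these lines were picked after their values were seen, and a link of their order to cell makeup was not tested.

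On HFD, TET2 KO cells had more Cdk5r1, Ccne1, Ccne2, Cdk2, Cenpa, Cenps and Mcm7 than WT cells and less Ccnd1, Cdk4, Cdk14, Kif7 and Kif26a. Of the 26 members listed, 18 passed, 10 higher and 8 lower. That was 69.2% of them, against 82.3 percent of the 3939 listed genes (43.1 percent higher and 39.1 percent lower) and 15.6 percent of the 18703 genes the authors adjusted. For 19 there was no overlap between the groups, against 74.7 percent of the listed genes, and 4 passed with a log2 change over 1, against 29.6 percent. At an adjusted p under 0.05 edgeR called 0 members (lowest 0.261) and 0 of all genes tested, while DESeq2 had 23 members at an unadjusted and 5 at an adjusted p under 0.05. Without TET2 KO HFD replicate 2 the count of 18 became 9, and without WT HFD replicate 1 it became 10. This comparison and that of the diets in WT share the 3 WT HFD libraries, so a gene that stood apart in those libraries enters both, and the values of each are given side by side without further inference.

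Cdk5r1 was 2.10, 2.15 and 2.30 FPKM in WT HFD and 5.67, 4.19 and 4.35 FPKM in TET2 KO HFD (1.12 ± 0.17, adjusted p = 0.261), against 6.25, 5.92 and 4.12 FPKM in WT chow. Ccne1 was 3.53, 2.69 and 2.49 FPKM in TET2 KO HFD, above all 3 WT HFD libraries (0.73 ± 0.20, adjusted p = 0.261). Ccne2 was 2.47, 2.21 and 1.44 FPKM, and its lowest TET2 KO HFD library lay under the highest WT HFD library (0.75 ± 0.27). Cdk2 was 16.1, 12.5 and 11.8 FPKM in TET2 KO HFD without overlap (0.52 ± 0.17). The histone H3 variant of centromeres, Cenpa, was 11.5, 13.95 and 8.45 FPKM in WT HFD and 19.7, 17.1 and 16.6 FPKM in TET2 KO HFD (0.66 ± 0.20). Cenps, which also takes part in DNA repair, was 1.08, 1.35 and 1.54 and 1.79, 2.27 and 2.13 FPKM (0.65 ± 0.23), and Cenpl rose by 0.40. Mcm7 was 15.2, 14.8 and 13.3 FPKM in TET2 KO HFD (0.31 ± 0.13, adjusted p = 0.320), and Cdk11b was 54.9, 50.3 and 48.04 FPKM (0.45 ± 0.13). Cdk5r1, Ccne1, Cdk2, Cenpa and Cdk11b passed without any one library. The calls for Ccne2, Cenpl and Mcm7 were each lost in 4 or 5 of the 6 fits without 1 library and those for Cenps in 3, with TET2 KO HFD replicate 2 and WT HFD replicate 1 among the decisive libraries for all of these.

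On the lower side, Ccnd1 was 10.6, 7.41 and 8.98 FPKM in WT HFD and 6.40, 5.15 and 4.92 FPKM in TET2 KO HFD (-0.71 ± 0.19, adjusted p = 0.261). Cdk14 was 4.69, 4.18 and 3.72 and 2.86, 2.61 and 2.29 FPKM (-0.69 ± 0.16, adjusted p = 0.261), and Kif7 was 1.10, 0.966 and 0.980 and 0.667, 0.472 and 0.453 FPKM (-0.93 ± 0.23). These 3 did not overlap between the groups and passed without any one library. Cdk4 was 12.6, 12.9 and 13.98 FPKM in TET2 KO HFD, below every WT HFD library (-0.37 ± 0.13), Cdc23 fell by 0.41, and Kif26a was 2.95, 2.32 and 1.21 FPKM, with its highest library level with the lowest of WT HFD (-1.06 ± 0.39). Plk5, a Polo-like kinase without kinase activity, was at 0.316 FPKM or less in every library and fell by 1.16, and Kif21a fell by 0.70. Kif17, at 0.276, 0.111 and 0.0917 FPKM in TET2 KO HFD, rose by 1.50 from levels of 0.0730 FPKM or less in WT HFD. The calls for Cdk4, Cdc23, Kif26a, Plk5 and Kif21a were lost without WT HFD replicate 1 or TET2 KO HFD replicate 2, and that for Kif17 without TET2 KO HFD replicate 1, WT HFD replicate 2 or WT HFD replicate 3.

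The other 8 listed members did not pass on HFD. Cdkn2a, which encodes p16 and ARF and is a marker of senescence, was 1.13, 1.21 and 4.31 FPKM in WT HFD and 1.12, 0.933 and 0.694 FPKM in TET2 KO HFD (-1.26 ± 0.56, adjusted p = 0.338), with the third WT HFD library far above the others, and without that library the log2 change was -0.34. Cdc45 was 3.06, 1.81 and 1.62 FPKM in TET2 KO HFD (0.64 ± 0.30, adjusted p = 0.361) and Kif23 was 4.76, 6.34 and 4.24 FPKM (0.57 ± 0.27, adjusted p = 0.382). Cdkn2aip, Cdk13, Cdk5rap1 and Cdc25b had log2 changes of 0.35 to 0.43, and Cdc16 of -0.33.

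**Figure D4:**
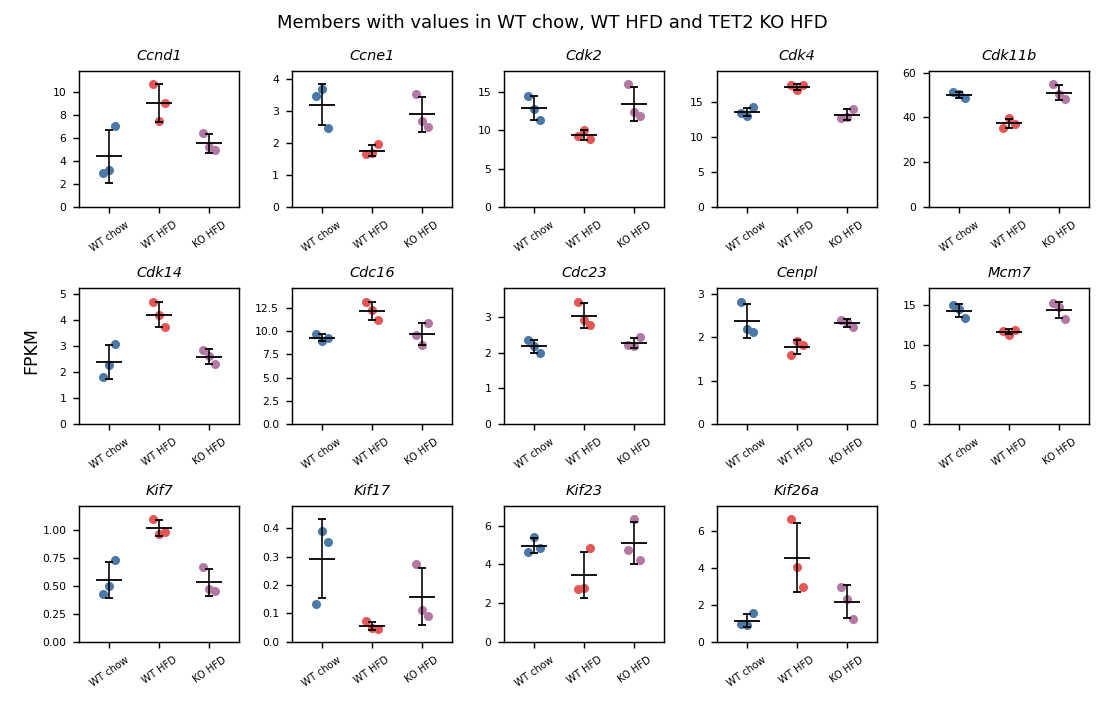
FPKM of 14 members with values in WT chow (blue), WT HFD (red) and TET2 KO HFD (purple, labelled KO HFD), each point a library, with the mean and SD in black. The WT HFD libraries enter both comparisons; Cdk4 is at 17.3, 16.7 and 17.3 FPKM in them and at 12.6, 12.9 and 13.98 FPKM in TET2 KO HFD.

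Beside these changes, 8 of the 10 endothelial markers were listed for the genotypes on HFD and 7 fell, with summed levels of 1246, 992 and 723 FPKM in WT HFD and 688, 373 and 432 FPKM in TET2 KO HFD. The lung epithelial markers Ager and Hopx fell as well, by 1.06 and 0.73, and the monocyte marker Ccr2 fell by 1.05. The NK cell marker Ncr1 (-1.14) and the mesothelial marker Msln (0.96) were listed without passing, and no T cell, B cell, neutrophil, or fibroblast and smooth muscle marker was listed. Whether the shares of these cells had a part in the changes of the cell cycle genes was not tested.

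On chow, the comparison of TET2 KO with WT listed 6 members and shares its WT chow libraries with that of the diets in WT. Of the 6, 4 fell (Cenpm, Cdk5r1, Ccne2 and Cdc45) and the other two had values on the lower side. That was 66.7% of the 6, against 76.6 percent of the 1298 listed genes (30.6 percent higher and 46 percent lower) and 4.25 percent of the 18463 genes the authors adjusted. For 5 there was no overlap between the groups, against 74.7 percent of the listed genes, and 0 passed with a log2 change over 1, against 33.5 percent. No member passed at an adjusted p under 0.05 by edgeR (0 of all genes tested, lowest 1 among the members) or DESeq2 (0 members, with 6 at an unadjusted p under 0.05), and without TET2 KO chow replicate 3 the count of 4 became 2. Cenpm, of the inner kinetochore, was 0.889, 0.994 and 0.714 FPKM in WT chow and 0.464, 0.448 and 0.469 FPKM in TET2 KO chow (-0.91 ± 0.26, adjusted p = 1.000). Cdc45 was 1.45, 1.88 and 1.69 FPKM in TET2 KO chow, below the 3 WT chow libraries given above (-0.56 ± 0.17, adjusted p = 1.000). Both passed without any one library. Ccne2 was 1.31, 1.69 and 1.31 FPKM (-0.62 ± 0.19) and lost its call without TET2 KO chow replicate 3. Cdk5r1 was 2.17, 4.23 and 3.57 FPKM, which overlapped with WT chow (-0.72 ± 0.28), and it lost its call in 4 of the 6 fits without 1 library, that without TET2 KO chow replicate 1 among them. Cdc20 was 3.50, 3.68 and 3.72 FPKM (-0.32 ± 0.15, adjusted p = 1.000) and Kif19a, a kinesin of ciliated cells, was 1.64, 1.67 and 1.47 FPKM in WT chow and 1.35, 1.18 and 1.12 FPKM in TET2 KO chow (-0.39 ± 0.18, adjusted p = 1.000). No endothelial marker was listed here, but 5 of 9 T cell markers, the NK cell marker Prf1 and the monocyte marker Ccr2 rose, and 4 of 5 mesothelial, 3 of 8 fibroblast and smooth muscle and 2 of 9 lung epithelial markers fell. Summed over the listed markers, T cell levels were 87.7 to 136 FPKM in WT chow and 136 to 189 FPKM in TET2 KO chow, and the part of these cells in the values above was not tested.

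HFD against chow in TET2 KO, which shares its libraries with both comparisons of TET2 KO with WT, listed 7 members, of which 2 rose and 2 fell. That was 57.1% of them, against 77 percent of the 1628 listed genes (29.3 percent higher and 47.7 percent lower) and 5.71 percent of the 19511 genes the authors adjusted. All 7 had groups without overlap, against 72.6 percent of the listed genes, and 0 passed with a log2 change over 1, against 32.2 percent. Cenpa went from 12.5, 10.7 and 10.9 FPKM in TET2 KO chow to 19.7, 17.1 and 16.6 FPKM in TET2 KO HFD (0.64 ± 0.15, adjusted p = 0.820) and was the member that passed without any one library. Cdk19 was 17.7, 18.5 and 20.7 FPKM in TET2 KO chow and 24.5, 22.7 and 26.97 FPKM in TET2 KO HFD (0.38 ± 0.15). Cdc14b, a phosphatase related to Cdc14a, went from 3.32, 3.33 and 3.20 to 2.18, 2.43 and 2.71 FPKM (-0.43 ± 0.16), and Kif5a from 0.178, 0.349 and 0.253 to 0.150, 0.149 and 0.154 FPKM (-0.78 ± 0.33). The calls for Cdk19, Cdc14b and Kif5a were lost without TET2 KO HFD replicate 1 or TET2 KO chow replicate 2 and in 2 or more further fits, and the count of 4 became 2 without TET2 KO HFD replicate 1, TET2 KO HFD replicate 2 or TET2 KO chow replicate 1 and 1 without TET2 KO chow replicate 2. Cdkn1b was 42.4, 46.3 and 54.8 FPKM in TET2 KO chow and 55.6, 65.4 and 64.1 FPKM in TET2 KO HFD and did not pass (0.37 ± 0.16, adjusted p = 0.890). Cenpv (-0.58 ± 0.25) and the chromosome-arm kinesin Kif22 (-0.38 ± 0.18) did not pass either. At an adjusted p under 0.05 edgeR called 0 members, and 0.0614 percent of the listed genes, while DESeq2 called 7 at an unadjusted and 1, Cenpa, at an adjusted p under 0.05. TMM scaling over the listed genes moved the median of all log2 changes by 0.25 and the call split to 3 higher and 0 lower, so directions here are relative to the deposited size factors. Of the 5 mesothelial markers 4 rose, from sums of 0.674 to 1.30 FPKM to 3.09 to 6.26 FPKM, 1 endothelial marker, Emcn, rose, and 1 of 8 fibroblast and smooth muscle markers, Dcn, rose by 0.92. The T cell markers Cd8a and Il7r fell by 0.62 and 0.55, the macrophage markers Marco and Mrc1 by 0.97 and 0.92, and the epithelial marker Epcam by 0.60. The part of these cells in the values above was not tested.

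Counts in all 12 libraries were at hand for 6 members: Ccne2, Cdc45, Cdk5r1, Cdk19, Kif5a and Cdkn1b. For Ccne2 the group means were 2.20 ± 0.235 (SD, n = 3) FPKM in WT chow, 1.43 ± 0.218 in TET2 KO chow, 1.22 ± 0.302 in WT HFD and 2.04 ± 0.535 in TET2 KO HFD. Cdc45 had 2.46 ± 0.138, 1.67 ± 0.215, 1.39 ± 0.311 and 2.16 ± 0.779 FPKM in the same order, and Cdk5r1 had 5.43 ± 1.15, 3.32 ± 1.05, 2.19 ± 0.105 and 4.74 ± 0.814 FPKM. All 3 means were thus highest in WT chow and lowest in WT HFD, and the ranges of the TET2 KO HFD and WT chow libraries overlapped. The difference between the diet effects (TET2 KO minus WT) was 1.36 ± 0.36 on the log2 scale for Ccne2, 1.19 ± 0.37 for Cdc45 and 1.83 ± 0.36 for Cdk5r1 (edgeR interaction term, adjusted p = 0.0152, 0.0197 and 0.0140). These genes had values in all libraries because both comparisons of TET2 KO with WT, or of the diets, had listed them, which fixes much of that difference, and 56.4 percent of the 975 genes with all 12 libraries passed at an unadjusted and 55.5 percent at an adjusted p under 0.05. Cdk19 (-0.19 ± 0.28), Kif5a (0.39 ± 0.60) and Cdkn1b (0.03 ± 0.24) did not pass. Cdk19 had 18.9 ± 3.04, 18.97 ± 1.55, 28.1 ± 5.86 and 24.7 ± 2.12 FPKM, and Cdkn1b had 46.2 ± 4.995, 47.9 ± 6.35, 58.2 ± 1.90 and 61.7 ± 5.31 FPKM, so that both means were higher on HFD in either genotype.

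**Figure D5:**
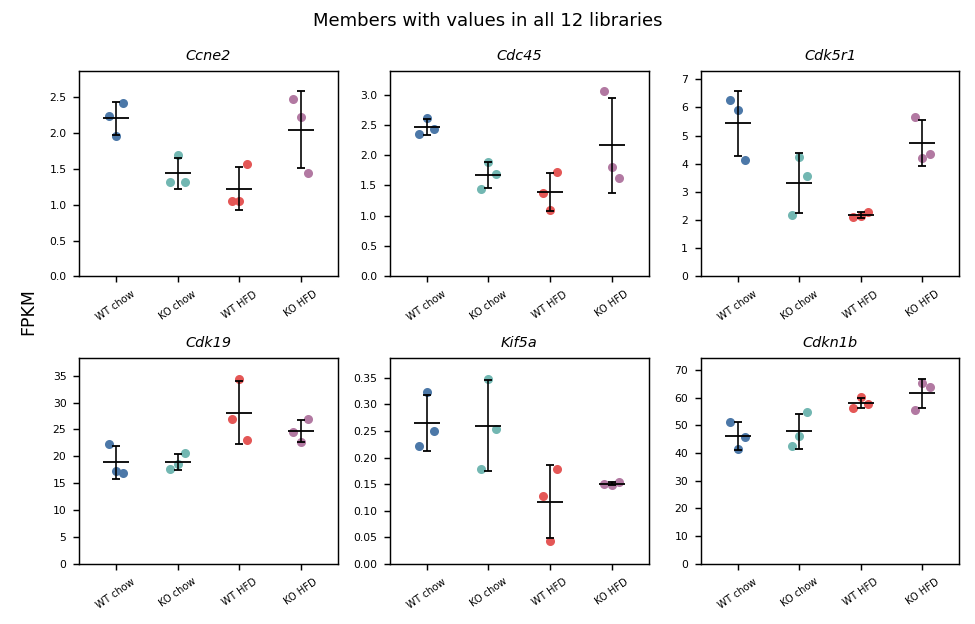
FPKM of the 6 members with values in all 12 libraries, each point a library (WT chow blue, TET2 KO chow teal, WT HFD red, TET2 KO HFD purple; KO stands for TET2 KO), with the mean and SD in black. Ccne2, Cdc45 and Cdk5r1 have their highest mean in WT chow and their lowest in WT HFD.

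Cell cycle genes with other symbols gave a further view, from lists of genes outside the symbol rule. For HFD against chow in WT, 17 of 47 DNA replication genes were listed and all 17 passed, 6 higher and 11 lower. Recql4, a replication helicase, fell by 1.27, the origin recognition subunit Orc1 by 0.80, thymidine kinase Tk1 by 0.69 and the sliding clamp Pcna by 0.44, while Orc5 rose by 0.75 and the polymerase delta subunit Pold2 by 0.51. Of 57 genes of mitosis and cytokinesis 8 were listed, 6 fell and 1 rose, with Ska3 (-1.26), Dlgap5 (-1.21) and the spindle midzone gene Prc1 (-0.93) on the lower side. Of 21 APC/C and cohesin genes 3 rose and 1 fell, and of 32 RB, DREAM and p53 regulators 2 rose and 3 fell, Rb1 (0.57) and Mybl1 (-1.06) among those that passed. For TET2 KO against WT on HFD, 10 DNA replication genes were listed, of which 6 rose (Dbf4 by 0.61, Tk1 by 0.65 and Pole2 by 0.54 among them) and 1, Orc5, fell by 0.45, and 3 of the 5 listed genes of mitosis and cytokinesis rose. On chow, TET2 KO against WT had 6 DNA replication genes listed, of which 2 rose and 3 fell, and 2 genes of mitosis and cytokinesis, Knl1 and Tacc3, fell. HFD against chow in TET2 KO had 1 DNA replication gene, Dbf4, which rose by 0.42, and 3 genes of mitosis and cytokinesis that passed, 1 higher and 2 lower. For these lists too the shares that passed are to be read against the shares of listed genes given above. The shares listed are to be read against those of all protein-coding genes. For HFD against chow in WT that share was 24.98%, counted over all annotated genes whether or not these cells express them. The 17 of 47 DNA replication genes lie above it and the 8 of 57 genes of mitosis and cytokinesis below it. The lists were chosen with earlier results of these data known, so neither difference is read as a result about them.

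Several members share sequence on the genome with a neighbour, and whether counting used the strand is not given in the sources used here. Ccne2 overlaps Ints8, Cdc45 overlaps Ufd1, Cdk2 overlaps Pmel, Cdk4 overlaps Tspan31 and Mcm7 overlaps Cops6 and Ap4m1. Cdc23 overlaps Kif20a, Kif17 overlaps Sh2d5 and Kif7 overlaps Ticrr. Ccnd1 overlaps LTO1, Ccnd3 overlaps Bysl, Cdc20 overlaps Elovl1 and Cdk11b overlaps Gm10563. Cdc26 overlaps Slc31a1, Cdc25b overlaps Spef1, Cdc14b overlaps Aaed1 and Kif28 overlaps Ahctf1. Reads of all these pairs may not have been told apart. Cdk5r1, Ccne1, Ccnb2, E2f1, Cenpa, Cenpm, Cdkn1b, Cdkn2b and Kif26a overlap no annotated gene.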

How the data were processed

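Poly(A) RNA of CD31+ lung cells from 12 mice, 3 in each of 4 groups, was sequenced. Groups and replicate numbers were taken from the sample labels, and each replicate was a mouse of its own. According to the study's methods and processing notes, the authors aligned reads to mm10 with HISAT2, counted reads on genes with featureCounts and compared groups with DESeq2; versions, annotation release and strand setting are not given in the sources used here. For each gene and library the authors deposited raw counts, a normalized signal, in which counts were divided by the size factor DESeq2 gave that library in that table, and FPKM. The deposited tables also hold the authors' log2 fold change and their p-value before and after adjustment. These were used only to find that every table stops at an unadjusted p of 0.05 and to recover the number of genes adjusted (18463 and 18703 for the genotypes on chow and on HFD, 23768 and 19511 for the diets in WT and in TET2 KO). The corresponding tables list 1298, 3939, 7330 and 1628 genes. Normalized counts and the test were kept within a table, while FPKM, which rests on each library's own total, was set across tables.

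Listed counts were tested in R 4.3.3 with the quasi-likelihood test of edgeR 4.0.16, with the authors' size factors, only the 2 groups at issue and no covariate, with Benjamini-Hochberg adjustment over the recovered number of genes. The SE is the log2 change over the root of the F statistic. The interaction used 975 genes with counts in all 12 libraries and size factors joined through shared libraries, and its p-values were adjusted over those genes. The fits were tested on simulated data. Alternatives were an adjusted p under 0.05, a log2 change over 1, DESeq2 1.42.0, TMM over the listed genes, library totals, a mean count of at least 10, the replicate number as a block, and leaving out each library; for single genes in the interaction they were chosen after seeing the data. Named genes were listed members of a panel of proliferation genes, members in 2 or more tables, members with values in all 12 libraries, and in each comparison and role up to 2 called members with the largest change, a mean of at least 50 normalized counts and no overlap; other members were named after their values were seen, to complete each role. The members, roles and lists were chosen with earlier results of these data known. Depth was recovered from counts, lengths and FPKM and was 36.7 to 56.8 M reads, at which counting error is small beside the variation among mice for all but genes with few reads. Promoters came from RefSeq on GRCm38.p6 and gene positions from GENCODE M21 on GRCm38, in which all 59 identifiers were found with the same coordinates. Figures were made with Python 3.11.15 and matplotlib 3.10.9.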

Additional observations from a re-analysis of the deposited data

Results flagged for a closer look

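The edgeR interaction term (3 mice in each of 4 groups) passed for 3 members, which could be tested only because of where they were listed. The change from chow to HFD in TET2 KO minus that in WT was 1.36 on the log2 scale for Ccne2, 1.19 for Cdc45 and 1.83 for Cdk5r1, with adjusted p of 0.0152, 0.0197 and 0.0140, and all 3 passed in each of the 12 fits without 1 library. In WT the change on HFD was -0.84, -0.81 and -1.31. In TET2 KO it was not listed, so it has no value of its own here beyond the FPKM of the groups. All 3 genes had been listed for TET2 KO against WT on both diets, lower on chow and higher on HFD. That fixes the sign of this difference in advance, so the p-values and the 12 fits add no independent support. Of the 975 genes with values in all libraries, 55.5 percent passed as well.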

How the results depend on the processing

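At an adjusted p under 0.05 the members called were 0 for TET2 KO against WT on chow, 5 for HFD against chow in WT, 0 for TET2 KO against WT on HFD and 0 for HFD against chow in TET2 KO, and with a log2 change over 1 they were 0, 7, 4 and 0, in place of 4, 41, 18 and 4. Leaving out 1 library gave 2 to 4, 24 to 37, 9 to 19 and 1 to 4, counted for the members only. DESeq2 gave 7 for HFD against chow in TET2 KO, and 6, 42 and 23 for the others, which listing by the authors' DESeq2 largely fixes. Library totals and a minimum mean count of 10 kept every count within 1.5 times, as did TMM, which gave 3, 32, 16 and 3. The interaction had 3 members under every alternative run, which their listing for both genotype comparisons fixes in large part. In the listed genes, correlations of deviations ran from -0.139 to 0.212 between same-numbered libraries and from -0.420 to 0.365 between differently numbered ones. With 3 libraries a group this cannot decide whether the replicate numbers pair the mice. With the replicate block the counts were 4, 30, 17 and 2. TMM moved the median log2 change by 0.25 for HFD against chow in TET2 KO and by -0.36 in the interaction. The interaction of Cdkn1b, 0.03 and not called, changed sign to -0.30 under TMM and ran from -0.056 to 0.14 without 1 library, below 0 without WT chow replicate 1, TET2 KO chow replicate 1 (-0.043) or TET2 KO HFD replicate 2 (-0.0094); the cause was not tested. Of the single-gene values under alternatives other than leaving out a library, 311 kept direction and side of the threshold, 21 lost and 7 gained the call. Leaving out 1 library, 347 kept both, 84 lost and 10 gained the call. With 3 mice a group an exact permutation test of a single gene cannot give a p under 0.1, and genes outside the tables were not analysed here.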
